A study of Arabidopsis thaliana with 4 samples.

Results

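The comparison described here set whole seedlings of the Arabidopsis thaliana mutant asil1-2 against the wild-type strain Col-0, the background of the mutant, gene by gene across the nuclear genome. The members were the nuclear genes that the authors could test and that reached at least 1 FPKM (fragments counted relative to transcript length and sequencing depth) in either genotype. They numbered 19171 of the 33557 loci listed. Of the other nuclear loci, 13147 were not tested and 960 were tested but stayed below that level, and 67 organelle genes above it were left out. Just inside the limit lay AT5G49690, at 0.517 FPKM in Col-0 and 1.00 FPKM in asil1-2 in the authors' deposited table, and just outside it AT4G29990, at 0.999 and 0.836 FPKM. Mutant RNA came from 2 libraries of seedlings 14 days old. After stratification for 3 days at 4 °C they were raised at 22 °C on sucrose-containing medium (2%) in long days of 16 h of light. The labels describe the mutants alone. The sources used here do not give how many wild-type libraries were used, how those plants were grown, or the day and hour at which they were harvested. The authors' deposited table holds 1 FPKM per genotype and no value per library, so sequencing depth is unknown. No source says whether a genotype's libraries come from plants grown apart. The p-values then measure just the spread among these libraries, which may be technical. The mutant is represented by a single allele.

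ASIL1 belongs to the trihelix family of plant transcription factors, which bind short GT-rich stretches of DNA. It is known as a repressor of seed maturation genes in young seedlings, the genes that stock the embryo with storage proteins and oil. The series asks whether ASIL1 and HDP3, a domesticated Harbinger transposase, act on overlapping sets of genes. As a check of the label, ASIL1 (AT1G54060, chromosome 1, from 20180679 to 20182324 in TAIR10) was 5.50-fold lower in the mutant, at 22.9 FPKM in Col-0 and 4.16 FPKM in asil1-2 in the authors' deposited table. Its relative ASIL2 stood at 21.4 FPKM in Col-0 and 25.9 FPKM in asil1-2 in the authors' deposited table, a log2 fold change of 0.28 ± 0.25 (± gives the SE throughout) that was not called. Of the 14 trihelix genes among the members, ASIL1 was the 1 that was called.

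A gene counted as called at an authors' q under 0.05, and only called genes are said to have risen or fallen. By that rule 545 nuclear members rose in asil1-2, which is 2.84% of them, and 1151 fell, which is 6.00%. Decreases made up 67.9% of all calls. Most changes were moderate. Of the genes that fell, 213 had changed by less than 1.5-fold, 686 by 1.5-fold to 2-fold, 228 by 2-fold to 4-fold and 24 by more than 4-fold, with a median log2 fold change of -0.73. Of the 544 that rose from a level above 0, 71, 279, 174 and 20 lay in the same classes, with a median of 0.86. The decreases came mainly from well-expressed genes. Among members with a mean of 30 to 100 FPKM, 9.93% fell and 3.27% rose, whereas among those with a mean under 3 FPKM 2.00% fell and as many rose. The median standard error (SE) of the log2 fold change was 0.25 in the first class and 0.53 in the second, so weakly expressed genes were measured less precisely. Over chromosomes the share of members that fell ran from 5.77% to 6.35%, and the share that rose from 2.5% to 3.30%.

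The balance of decreases to increases depends on the scaling of the table. The median log2 fold change of all members was -0.08, and 60.7% of the 19156 members with a value in both genotypes were negative. When this median was subtracted and the authors' statistic was rescaled to match their p, 810 genes were higher and 837 lower, and decreases made up 50.8% of calls instead of 67.2% with the same rescaled statistic before centring. Of the 1151 genes that fell, 817 stayed lower by that measure. Subtracting a negative median raises every value, so that 544 of the 545 that rose stayed higher is no test of them. The small nucleolar RNA gene AT4G39366, chosen after its value was seen, was listed at 373059 FPKM in Col-0 and at 0 in asil1-2 in the authors' deposited table and was not called. It alone set most of the gap between the summed FPKM of the members in the genotypes, 1.35e+06 and 9.16e+05.

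**Figure D1:**
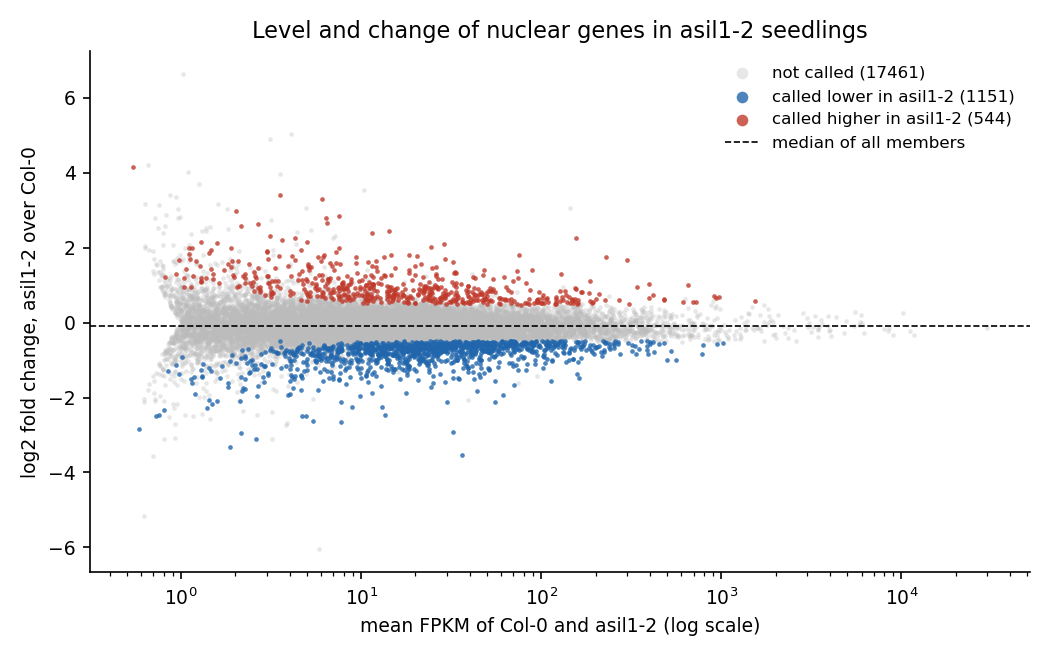
Each point is a nuclear gene with FPKM above 0 in both genotypes, placed by its mean FPKM (log scale) and its log2 fold change in asil1-2 over Col-0. Called decreases (1151, blue) form a dense band just below -0.48, called increases (544, red) a thinner one above 0.48, and the dashed line marks the median of -0.08.

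Gene lists by pathway showed where the changes gathered. The morning genes of the circadian clock had the highest share of members that fell among the 31 lists, 11 of 18, followed by sulfur assimilation with 9 of 18, light signalling with 13 of 29, cytokinin response with 6 of 14 and iron with 12 of 31. Rapid touch and stress genes had the highest share that rose, 12 of 31, with 0 that fell. Evening clock genes, heat shock genes and genes induced by sugar starvation followed. The counts stand beside 2.84% higher and 6.00% lower among all members. They describe lists picked with earlier results of these data known and are not tests of the lists.

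**Figure D2:**
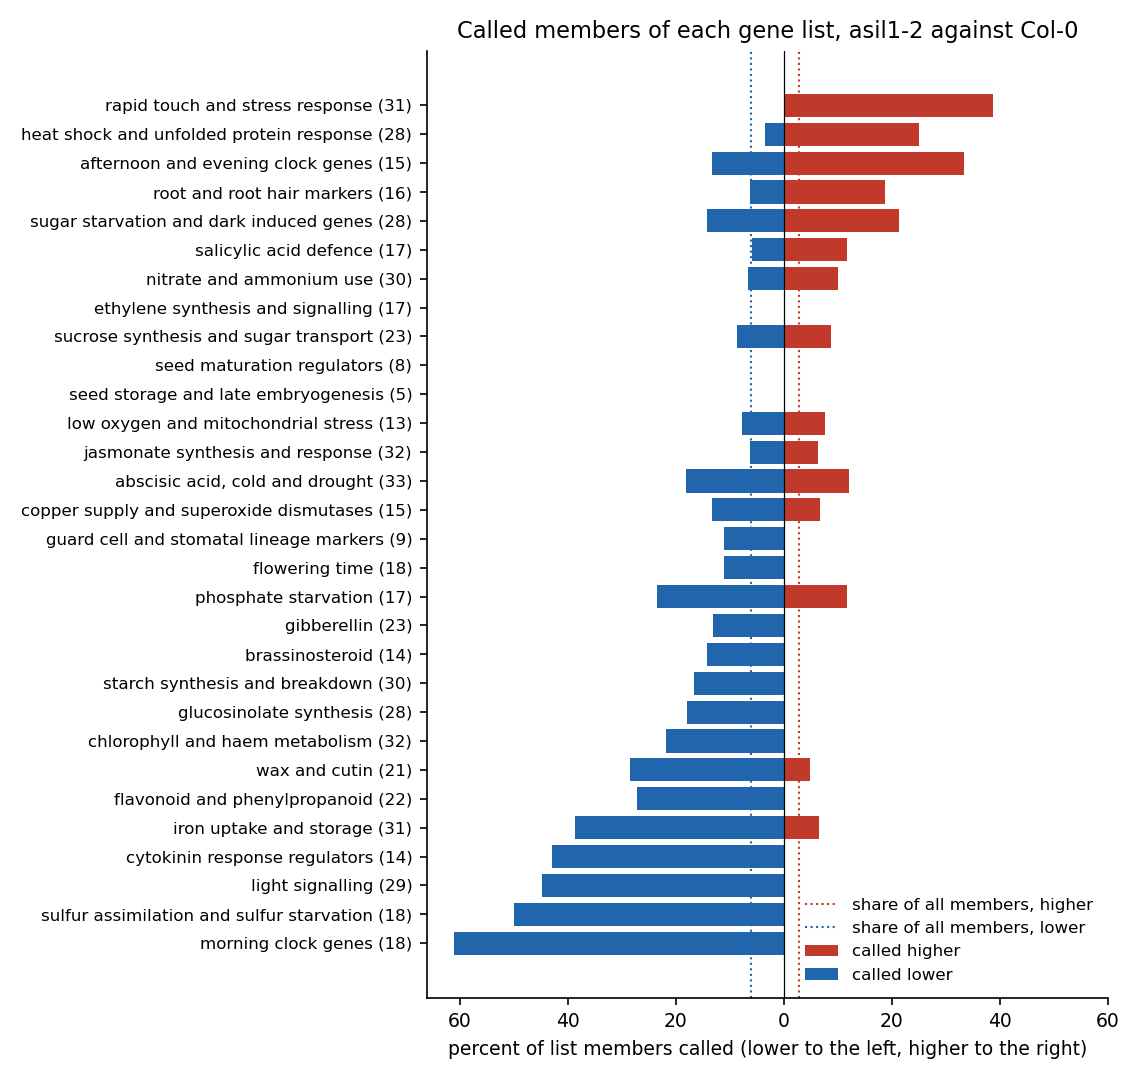
Bars give the percent of members of each gene list (number of members in parentheses) that were called higher (red, right) or lower (blue, left) in asil1-2, and dotted lines give the same shares over all nuclear members, 2.84 and 6.00 percent. Morning clock, sulfur, light signalling and cytokinin lists extend far to the left of the line with no red bar, and the touch list extends to the right with no blue bar.

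Seed maturation genes, the group that ASIL1 is known to repress, gave no call in these seedlings. Of 23 genes for storage proteins, oil bodies and late embryogenesis, 9 were tested, 5 were members, and 0 passed in the authors' Cuffdiff test, with 3 at an unadjusted p under 0.05. The storage globulin gene CRA1 stood at 1.47 FPKM in Col-0 and 0.809 FPKM in asil1-2 in the authors' deposited table, a log2 fold change of -0.87 ± 0.58. LEA4-5, a late embryogenesis protein gene, stood at 2.84 FPKM in Col-0 and 1.34 FPKM in asil1-2, or -1.09 ± 0.60, and the oleosin gene OLEO4 at 1.8 FPKM in Col-0 and 1.09 FPKM in asil1-2, or -0.72 ± 0.70, again in the authors' deposited table. All 3 values were lower in the mutant and none was called, and the unadjusted p was under 0.05 for CRA1 and LEA4-5 but not for OLEO4. LEA14 (-0.10 ± 0.25) and TAG1, which makes storage oil (0.44 ± 0.29), completed the members, the latter being the 1 with a positive value and the third with an unadjusted p under 0.05. OLEO2, GEA6, PER1 and M17 were tested below 1 FPKM, with log2 fold changes of -0.26, -0.012, 0.18 and 2.16. The others were not tested. The 2S albumin genes SESA2, SESA3, SESA4 and SESA5, the globulin genes CRU2 and AT1G03890, the caleosin gene ATS1 and the fatty acid elongase gene KCS18 were listed at 0 in both genotypes in the authors' deposited table. SESA1, EM1 and M10 were listed at 0 in Col-0 and at 0.0565, 0.040 and 0.146 FPKM in asil1-2. OLEO1, OLEO3 and CRU3 lay below 1 FPKM in both.

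Regulators of seed maturation gave no call either. Of 17 such genes 8 were members, and 0 passed in the authors' Cuffdiff test and 0 had an unadjusted p under 0.05. The activators LEC1 and ABI4 and the bZIP gene DPBF2 were listed at 0 in both genotypes in the authors' deposited table, and LEC2, FUS3, ABI3, ABI5 and NF-YB6 lay below 1 FPKM without a test. Repressors and chromatin factors were well expressed. HSI2 stood at 17.2 FPKM in Col-0 and 16.7 FPKM in asil1-2, PKL at 22.6 FPKM in Col-0 and 19.6 FPKM in asil1-2 and the histone deacetylase gene HD1 at 58.2 FPKM in Col-0 and 61.1 FPKM in asil1-2 in the authors' deposited table. Their log2 fold changes were -0.051, -0.20 and 0.07, against an SE of 0.25, 0.24 and 0.24. HDA6, HSL1, WRI1 and HAM4 had log2 fold changes from -0.32 to -0.039, and VAL3, tested below 1 FPKM, had -0.80 ± 0.56. The untested genes say nothing about a change.

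The plant circadian clock is a loop of repressors in which CCA1 and LHY, made around dawn, hold down genes of the afternoon and evening, whose products later hold down CCA1 and LHY. In asil1-2 most morning genes fell, while calls among evening genes went both ways. Among morning genes 11 of 18 fell and 0 rose, with a median log2 fold change of -0.76. CCA1 stood at 69.2 FPKM in Col-0 and 27.3 FPKM in asil1-2 in the authors' deposited table, a log2 fold change of -1.34 ± 0.27. LHY, its partner, stood at 13.2 FPKM in Col-0 and 5.79 FPKM in asil1-2, or -1.19 ± 0.27, and PRR9, a repressor of both, at 13.9 FPKM in Col-0 and 5.96 FPKM in asil1-2, or -1.22 ± 0.28, in the authors' deposited table. All 3 were lower in the mutant. The DOF factor genes CDF1, CDF2 and CDF3, which delay flowering, fell by 1.60 (SE 0.26), 0.78 (SE 0.28) and 0.73 (SE 0.24) on the log2 scale, and RVE8, a MYB-like activator of evening genes, by 0.86 (SE 0.28). RVE1, a MYB-like gene related to CCA1 and LHY, had -1.36 ± 0.25 and AT3G12320 -1.57 ± 0.26. PRR7, the latest of the morning set to peak, had 0.11 ± 0.25 and was not called. Among afternoon and evening genes 5 of 15 rose, 2 fell and 8 were not called, with a median of 0.42. FKF1, a blue-light receptor that removes CDF proteins, stood at 0.793 FPKM in Col-0 and 2.12 FPKM in asil1-2 in the authors' deposited table and rose by 1.42 ± 0.46. It was a member only through its level in asil1-2. PRR5, which represses CCA1 and LHY, stood at 8.43 FPKM in Col-0 and 14.3 FPKM in asil1-2 and rose by 0.76 ± 0.27, and PCL1, a part of the evening complex, stood at 12.7 FPKM in Col-0 and 19.4 FPKM in asil1-2 and rose by 0.61 ± 0.27 in the authors' deposited table. GRP7, an RNA-binding protein gene under clock control, stood at 254 FPKM in Col-0 and 362 FPKM in asil1-2 in the authors' deposited table and rose by 0.51 ± 0.24. The central evening genes TOC1 (0.42 ± 0.25), GI (-0.16 ± 0.25) and ELF3 (0.18 ± 0.26) were not called. The members that fell, BBX18 (-1.95 ± 0.37) and BBX19 (-1.33 ± 0.35), encode B-box zinc finger proteins. At a q under 0.01 FKF1 and PRR5 kept their call, while AT4G33980, GRP7 and PCL1 lost it. Since the hour at which the Col-0 plants were taken is not given, genotype and hour of harvest cannot be told apart for these genes.

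**Figure D3:**
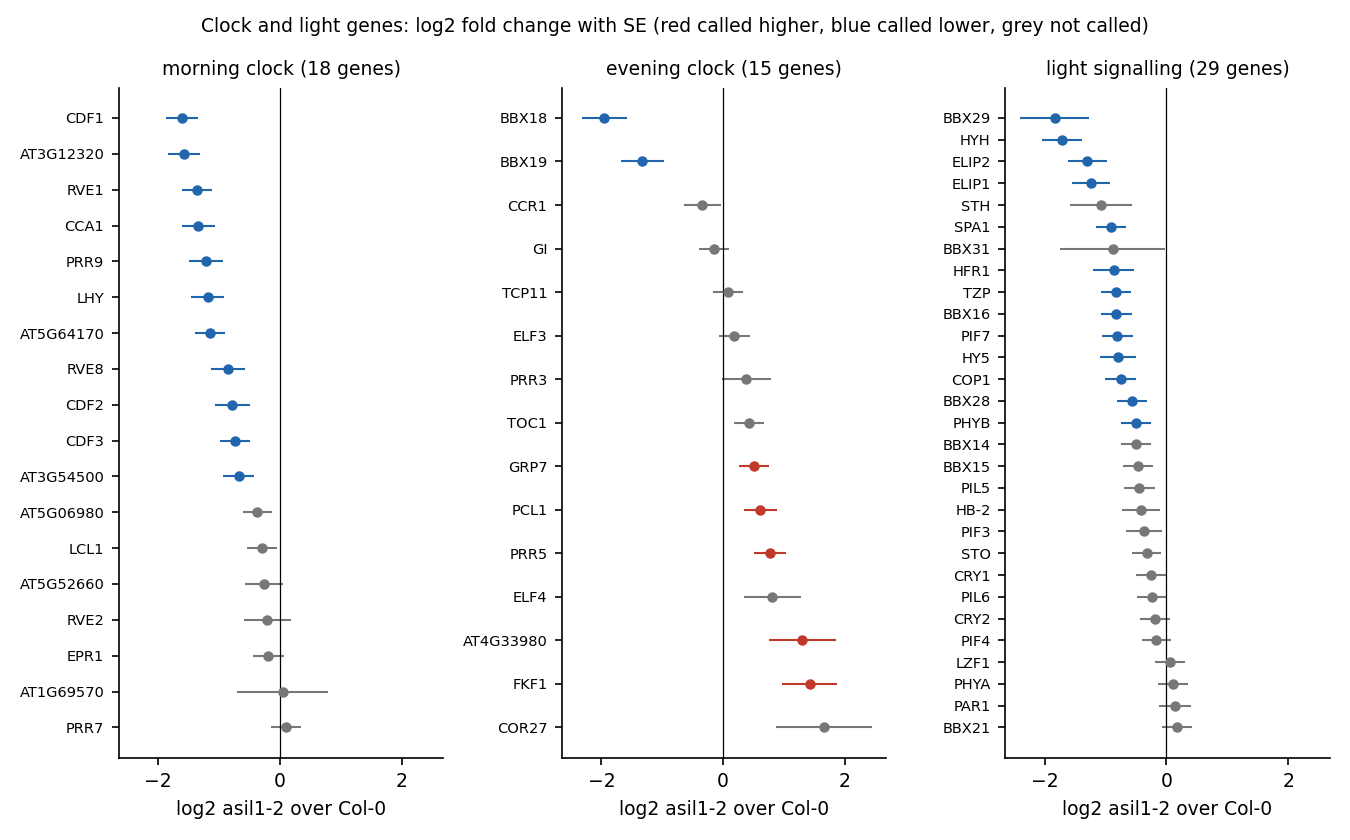
Points give the log2 fold change in asil1-2 over Col-0 and bars its SE for every member of the morning clock, evening clock and light signalling lists, one gene per row. The called morning and light genes all lie left of 0, while 5 of the 7 called evening genes lie to the right.

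The sequences upstream of 3 evening genes that rose are shown because each holds the evening element. This element, AAATATCT, is a short sequence through which morning MYB-like factors are known to act on evening genes. In the 300 bases upstream of the annotated start, on either strand, it was found in 5.79% of 19115 member promoters. It was present in 8 of 15 evening list promoters, in 4 of the 5 genes that rose and in 0 of the 2 that fell. The other motif letters marked are AAAAATCT, CACGTG, then GTGATT and lastly TTGAC, found in 7.95%, 7.93%, 18.8% and 50.3% of member promoters. Sequences come from the RefSeq assembly TAIR10.1, run 5′ to 3′ on the strand of the gene, and end at the base before its start. They cover chr1:25508339-25508638 (plus strand) for FKF1, chr5:8358547-8358846 (minus) for PRR5 and chr3:17182742-17183041 (plus) for PCL1, and capitals mark every match to the 9 motifs searched.
FKF1: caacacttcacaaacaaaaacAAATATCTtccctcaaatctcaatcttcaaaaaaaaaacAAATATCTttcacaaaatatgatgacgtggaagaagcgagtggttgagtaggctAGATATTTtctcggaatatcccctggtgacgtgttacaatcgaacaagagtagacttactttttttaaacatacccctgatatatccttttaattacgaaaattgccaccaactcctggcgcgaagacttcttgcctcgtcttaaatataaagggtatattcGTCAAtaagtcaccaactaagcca
PRR5: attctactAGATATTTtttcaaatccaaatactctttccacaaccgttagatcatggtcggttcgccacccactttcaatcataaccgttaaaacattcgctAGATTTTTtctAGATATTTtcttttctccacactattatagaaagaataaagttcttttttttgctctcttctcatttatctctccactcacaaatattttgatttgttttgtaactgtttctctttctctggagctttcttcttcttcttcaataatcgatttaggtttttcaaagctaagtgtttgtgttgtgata
PCL1: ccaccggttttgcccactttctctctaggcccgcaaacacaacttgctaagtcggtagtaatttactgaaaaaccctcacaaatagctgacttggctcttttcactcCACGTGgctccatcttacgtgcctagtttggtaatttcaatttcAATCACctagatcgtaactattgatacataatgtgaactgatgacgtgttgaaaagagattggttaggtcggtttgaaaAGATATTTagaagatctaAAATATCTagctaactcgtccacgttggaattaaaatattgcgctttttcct
FKF1 held AAATATCT or its reverse complement at 3 places, PRR5 at 2 and PCL1 at 2. PCL1 also held CACGTG, the core letters bound by many light-responsive bZIP and bHLH factors. In the morning list CACGTG was present in 8 of 18 promoters and in 6 of the 11 genes that fell. The window of GRP7 runs into the neighbouring gene AT2G21670 and is not printed. Over all members AAATATCT stood in 8.44% of the promoters of genes that rose and 7.31% of those that fell, CACGTG in 5.50% and 10.3%, and the GT-element letters GTGATT and GGTTAA, of the kind trihelix factors bind, in 19.3% and 20.8% and in 19.4% and 17%, beside 18.8% and 17.8% of all members. The remaining letters searched were CGCGTT, held by 3.18% of member promoters, GATAAG, by 14.8%, and AAACCCTA, by 4.24%. A match is a description of letters and not a binding site.

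Light signalling genes fell in 13 of 29 cases and rose in 0. HY5 and HYH, bZIP factors that promote the light response, stood at 21.9 FPKM in Col-0 and 12.6 FPKM in asil1-2 and at 37.2 FPKM in Col-0 and 11.3 FPKM in asil1-2 in the authors' deposited table, with log2 fold changes of -0.79 ± 0.29 and -1.72 ± 0.33. The early light-inducible genes ELIP1 and ELIP2, whose proteins protect the photosystems and are known targets of HY5, fell by 1.24 (SE 0.32) and 1.3 (SE 0.31) on the log2 scale, from 23.7 to 10 FPKM and from 28.6 to 11.6 FPKM in the authors' deposited table. COP1 and SPA1, parts of the ubiquitin ligase that destroys HY5, fell as well, with -0.75 ± 0.25 and -0.91 ± 0.24, as did the red-light receptor PHYB (-0.50 ± 0.25). HFR1, PIF7, TZP and the B-box genes BBX16, BBX28 and BBX29 made up the rest. Activators and repressors of the light response thus fell side by side. PHYA, CRY1 and CRY2 were not called, with 0.11, -0.25 and -0.19.

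Few genes for the photosynthetic apparatus itself were called. Of 46 nuclear genes for photosystems and light harvesting, 0 rose and 1 fell, with a median log2 fold change of -0.14, and of 17 genes for Rubisco and the Calvin cycle 0 passed in the authors' Cuffdiff test, with 4 at an unadjusted p under 0.05. In the list on chlorophyll and haem, 7 of 32 fell and 0 rose. GPRI1 and GLK2, the Golden2-like factors that switch on chlorophyll and antenna genes, stood at 78.9 FPKM in Col-0 and 38.2 FPKM in asil1-2 and at 200.0 FPKM in Col-0 and 101 FPKM in asil1-2 in the authors' deposited table. They fell by 1.05 (SE 0.24) and 0.98 (SE 0.24) on the log2 scale, the deepest of the list. The chlorophyll enzymes POR C, CH1 and PCB2, the ferrochelatase FC2, which leads to haem, and NYE1, which starts chlorophyll breakdown, had values from -0.61 to -0.50. After median centring with the rescaled statistic 3 of the 7 stayed lower.

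Cytokinin raises the type-A response regulators, which in turn dampen the hormone's signal. In asil1-2 6 of 14 genes on this list fell and 0 rose. ARR7 stood at 59.4 FPKM in Col-0 and 24.0 FPKM in asil1-2, ARR6 at 57.1 FPKM in Col-0 and 25.6 FPKM in asil1-2 and ARR15 at 5.93 FPKM in Col-0 and 2.23 FPKM in asil1-2 in the authors' deposited table, each lower in the mutant. Their log2 fold changes were -1.31 ± 0.27, -1.16 ± 0.26 and -1.41 ± 0.59. ARR9 (-0.76 ± 0.24), RR5 (-0.72 ± 0.26) and CKX7, which breaks cytokinin down (-0.68 ± 0.27), fell by less. All 6 stayed lower after median centring with the rescaled statistic.

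Calls in the other hormone groups were mainly decreases, beside 2.84% higher and 6.00% lower over all members. Of 17 ethylene genes 0 passed in the authors' Cuffdiff test, 5 had an unadjusted p under 0.05, and 3 were higher after median centring with the rescaled statistic. Of 23 gibberellin genes 3 fell, namely ATGA2OX1, which inactivates the hormone (-1.36 ± 0.46), GA3OX1, which makes it (-0.76 ± 0.31), and RGA1, a repressor of its signal (-0.55 ± 0.24). In the brassinosteroid list PRE1 (-1.74 ± 0.73) and its antagonist IBH1 (-0.70 ± 0.29) fell. Of 58 SAUR genes, small auxin-induced proteins, 8 fell and 1 rose, and of 31 Aux/IAA and GH3 genes 7 fell and 0 rose, with IAA1 at -0.90 ± 0.28 and the GH3 family genes AT5G13360 and AT5G13370 at -0.77 ± 0.29 and -0.69 ± 0.26. After median centring with the rescaled statistic the SAUR genes gave 5 lower and 4 higher and the Aux/IAA and GH3 genes 3 lower, so these balances depend on the scaling. The SAUR genes that changed most were AT5G18030 (-1.18 ± 0.44), AT4G38840 (-1.01 ± 0.29) and AT2G21210 (-0.96 ± 0.32), which fell, and AT3G12830 (1.16 ± 0.44), which rose. Jasmonate genes split, 2 of 32 rising and 2 falling. OPR3 (0.69 ± 0.26), a late enzyme of jasmonate synthesis, rose, and AOS (-0.59 ± 0.24), an early one, fell. CYP94C1 (0.89 ± 0.31), which breaks active jasmonate down, rose, and TAT3 (-1.16 ± 0.44), a jasmonate-induced aminotransferase gene, fell. SVP (-0.58 ± 0.24) and SNZ (-0.84 ± 0.29), repressors of flowering, were the 2 of 18 flowering genes that fell.

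The deepest fall of any called member was that of ATSPS4F, a sucrose-phosphate synthase gene, with -3.53 ± 0.25. The other sucrose-phosphate synthase members, SPS1F and SPS2F, had 0.05 and 0.054 and were not called. The sequences upstream of ATSPS4F, of AT5G66740, which fell next furthest (-3.33 ± 0.90), and of AT5G28335, which rose furthest (4.15 ± 0.85), are shown as the ends of the range. They cover chr4:6313614-6313913 (plus strand), chr5:26646600-26646899 (plus) and chr5:10313587-10313886 (minus) of TAIR10.1. Capitals mark TTGAC in the first pair, in reverse in ATSPS4F, and the reverse of AAACCCTA and of GATAAG in the last.
ATSPS4F: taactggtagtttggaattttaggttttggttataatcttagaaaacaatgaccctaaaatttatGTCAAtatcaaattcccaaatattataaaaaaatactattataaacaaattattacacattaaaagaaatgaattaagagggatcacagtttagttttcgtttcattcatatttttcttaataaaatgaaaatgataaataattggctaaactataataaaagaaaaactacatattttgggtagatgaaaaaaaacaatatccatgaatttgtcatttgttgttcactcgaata
AT5G66740: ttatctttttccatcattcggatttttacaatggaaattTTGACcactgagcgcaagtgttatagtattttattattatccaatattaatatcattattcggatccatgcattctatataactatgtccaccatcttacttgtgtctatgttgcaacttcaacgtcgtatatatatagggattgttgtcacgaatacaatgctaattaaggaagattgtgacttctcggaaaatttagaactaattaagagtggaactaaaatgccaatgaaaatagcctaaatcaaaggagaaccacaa
AT5G28335: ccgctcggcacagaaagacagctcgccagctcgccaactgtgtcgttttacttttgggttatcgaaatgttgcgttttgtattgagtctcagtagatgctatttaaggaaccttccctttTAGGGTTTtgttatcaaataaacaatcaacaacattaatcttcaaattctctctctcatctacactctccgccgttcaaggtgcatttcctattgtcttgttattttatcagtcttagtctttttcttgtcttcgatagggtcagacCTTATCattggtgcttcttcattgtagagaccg
Sugar transporter calls went in both directions, and the rises were the less firm. STP1, a hexose importer of the plasma membrane, stood at 586 FPKM in Col-0 and 864 FPKM in asil1-2 in the authors' deposited table and rose by 0.56 ± 0.26. TMT1, which loads sugar into the vacuole, rose by 0.56 ± 0.25, but neither kept its call at a q under 0.01, while the hexose importer MSS1, which kept it, fell by 0.73 (SE 0.27) on the log2 scale. In the starch list 5 of 30 fell and 0 rose. CT-BMY, a plastid beta-amylase that breaks starch down, stood at 104 FPKM in Col-0 and 43.6 FPKM in asil1-2 in the authors' deposited table, a log2 fold change of -1.26 ± 0.24. GBSS1, which makes amylose, stood at 59.3 FPKM in Col-0 and 31.0 FPKM in asil1-2 in the authors' deposited table, or -0.93 ± 0.24. BAM6 (-1.25 ± 0.33), another beta-amylase, and the starch synthases SS2 (-0.58 ± 0.24) and SS4 (-0.52 ± 0.24) fell too, so that genes of synthesis and of breakdown were both among the 5.

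Genes induced by darkness and sugar starvation rose in 6 of 28 cases and fell in 4. ASN1, an asparagine synthetase that stores nitrogen when carbon is short, stood at 435 FPKM in Col-0 and 874 FPKM in asil1-2 in the authors' deposited table and rose by 1.01 ± 0.27. GDH2, a glutamate dehydrogenase, stood at 105 FPKM in Col-0 and 201 FPKM in asil1-2 and rose by 0.93 ± 0.25, and MCCA, an enzyme of leucine breakdown, at 33.4 FPKM in Col-0 and 74.5 FPKM in asil1-2 and by 1.16 ± 0.25, in the authors' deposited table. SEN1 (0.56 ± 0.25), EXL2 (0.60 ± 0.24) and EXL4 (0.85 ± 0.27) rose by less. DIN9 (-0.88 ± 0.35), DIN2 (-0.78 ± 0.29), bZIP1 (-0.58 ± 0.24) and AT3G59940 (-0.61 ± 0.25), of the same list, fell. The list on abscisic acid, cold and drought held 4 of 33 higher and 6 lower. Its steepest rises were those of MIOX2, an inositol oxygenase gene, at 53.9 FPKM in Col-0 and 258 FPKM in asil1-2, and ERD5, a proline dehydrogenase, at 105 FPKM in Col-0 and 354 FPKM in asil1-2 in the authors' deposited table. They rose by 2.26 ± 0.25 and 1.75 ± 0.25, or 4.80-fold and 3.37-fold. MIOX4 (1.56 ± 0.48), a relative of MIOX2, and ERD7 (0.99 ± 0.25) rose too. The genes that fell include classical markers of abscisic acid and drought. P5CS1, which makes the proline that ERD5 breaks down, stood at 217 FPKM in Col-0 and 113 FPKM in asil1-2, and the dehydrin gene RAB18 at 143 FPKM in Col-0 and 72.5 FPKM in asil1-2 in the authors' deposited table, or -0.95 ± 0.25 and -0.98 ± 0.25. RD20 (-1.31 ± 0.33), RD22 (-0.65 ± 0.24), LTI30 (-0.68 ± 0.24) and HAB1 (-0.58 ± 0.25), a phosphatase that restrains the hormone's signal, completed the 6.

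Sulfur assimilation turns sulfate into cysteine, with APS reductase as its main control point, and the LSU genes mark a shortage of sulfur. In asil1-2 9 of 18 genes on this list fell and 0 rose, and all 9 stayed lower after median centring with the rescaled statistic. LSU3 stood at 27.7 FPKM in Col-0 and 7.55 FPKM in asil1-2 and LSU2 at 56.0 FPKM in Col-0 and 22.2 FPKM in asil1-2 in the authors' deposited table, with log2 fold changes of -1.88 ± 0.44 and -1.33 ± 0.30. All 3 APS reductase genes fell. APR1 stood at 99.7 FPKM in Col-0 and 45.8 FPKM in asil1-2 in the authors' deposited table and had -1.12 ± 0.24, and APR3 and APR2 had -0.71 ± 0.27 and -0.60 ± 0.25. The sulfate transporter gene SULTR2;1 (-0.59 ± 0.24), ATSDI1 (-0.83 ± 0.30), which responds to low sulfur, SHM7 (-0.83 ± 0.24) and AT1G04770 (-1.2 ± 0.26) completed the 9. APR2 and APR3 overlap other listed loci, so their values are less certain.

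Phosphate starvation genes fell in 4 of 17 cases and rose in 2. SPX1, which senses phosphate and holds back the starvation response, stood at 90.0 FPKM in Col-0 and 20.7 FPKM in asil1-2 in the authors' deposited table and fell by 2.12 (SE 0.26) on the log2 scale. SRG3, a glycerophosphodiesterase gene, fell by 1.5 (SE 0.27), SPX2 by 0.98 (SE 0.27) and SQD2, which makes sulfolipid in place of phospholipid, by 0.61 (SE 0.24). G3Pp1, a glycerol-3-phosphate transporter gene outside this list, had -1.44 ± 0.26. The phosphatase gene PEPC1 and the ribonuclease gene RNS1, both also known to respond to low phosphate, rose by 2.12 ± 0.71 and 1.93 ± 0.70 from levels of 0.595 and 0.606 FPKM in the authors' deposited table. Both lay below 1 FPKM in Col-0 and were members only through their level in asil1-2. At a q under 0.01 all 4 decreases kept their call and neither rise did. Of 30 genes for nitrate and ammonium use 3 rose and 2 fell. The high-affinity nitrate transporter gene NRT2:1 stood at 5.97 FPKM in Col-0 and 17 FPKM in asil1-2 and its partner WR3 at 26.6 FPKM in Col-0 and 41.5 FPKM in asil1-2 in the authors' deposited table, or 1.51 ± 0.28 and 0.64 ± 0.27. BT1, a nitrate-responsive regulator, rose by 0.89 ± 0.24. The nitrate reductase gene NIA1 (-0.53 ± 0.24) and the ammonium transporter gene AMT1;2 (-0.73 ± 0.26) fell. The nitrate transporter genes AT1G12110 (NRT1.1) and AT1G32450 (NRT1.5) were not called. NRT1.1 stood at 73.1 FPKM in Col-0 and 59.9 FPKM in asil1-2 in the authors' deposited table. NRT1.5 stood at 94.0 FPKM in Col-0 and 75.5 FPKM in asil1-2 in the authors' deposited table.

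Superoxide dismutase genes moved in both directions. The plastid copper enzyme CSD2 stood at 483 FPKM in Col-0 and 288 FPKM in asil1-2 and its copper chaperone CCS at 118 FPKM in Col-0 and 69.8 FPKM in asil1-2 in the authors' deposited table, and they fell by 0.74 (SE 0.24) and 0.76 (SE 0.24) on the log2 scale. The iron enzyme FSD1, known to replace it when copper is scarce, stood at 309 FPKM in Col-0 and 488 FPKM in asil1-2 in the authors' deposited table and rose by 0.66 ± 0.24. Of 31 iron genes 12 fell and 2 rose, and among those that fell AT1G47395 had -2.26 ± 0.65, AT2G30766 stood at 56.9 FPKM in Col-0 and 7.51 FPKM in asil1-2 and CYP82C4, which makes an iron-mobilising coumarin, at 1.34 FPKM in Col-0 and 0.267 FPKM in asil1-2 in the authors' deposited table. Their log2 fold changes were -2.92 ± 0.50 and -2.33 ± 0.74. Genes of iron uptake were among the 12 that fell. The 2 that rose were ferritin genes, whose proteins store iron, FER2 with 2.79 among them.

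Increases were frequent in some families of cell wall proteins and not in others, beside 2.84% higher and 6.00% lower over all members. Among 83 genes for arabinogalactan proteins and extensins, glycoproteins that are woven into the wall, 30 rose and 1 fell, with a median log2 fold change of 0.44. EXT3, the most abundant, stood at 746 FPKM in Col-0 and 1194 FPKM in asil1-2 in the authors' deposited table and rose by 0.68 ± 0.26. AGP16 stood at 313 FPKM in Col-0 and 526 FPKM in asil1-2, AT2G43150 at 231 FPKM in Col-0 and 448 FPKM in asil1-2 and AGP9 at 118 FPKM in Col-0 and 254 FPKM in asil1-2 in the authors' deposited table, rising by 0.75 ± 0.24, 0.96 ± 0.24 and 1.11 ± 0.25. The steepest rises were in weakly expressed extensins. AT5G06630 had 1.74 ± 0.40, EXT12 stood at 1.93 FPKM in Col-0 and 7.35 FPKM in asil1-2, EXT6 at 2.75 FPKM in Col-0 and 9.61 FPKM in asil1-2 and EXT10 at 2.64 FPKM in Col-0 and 8.90 FPKM in asil1-2 in the authors' deposited table, or 1.93 ± 0.43, 1.81 ± 0.38 and 1.75 ± 0.37. Extensins share repeats, so reads may have been split among near-identical copies and single values are uncertain. The gene that fell, AT5G41050 (-0.83 ± 0.28), is annotated as a pollen allergen and extensin family member.

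Enzymes that cut and rejoin xyloglucan, the main tether of the primary wall, rose in 6 of 25 cases and fell in 0. Over all members 2.84% rose and 6.00% fell. XTH4 stood at 382 FPKM in Col-0 and 582 FPKM in asil1-2, XTR6 at 26.5 FPKM in Col-0 and 70.0 FPKM in asil1-2 and XTH33 at 6.12 FPKM in Col-0 and 20.8 FPKM in asil1-2 in the authors' deposited table, with rises of 0.61 ± 0.25, 1.40 ± 0.26 and 1.76 ± 0.34. XTH18 (1.33 ± 0.27) and XTH15 (0.90 ± 0.25) rose too. Class III peroxidases, which cross-link wall proteins and lignin, rose in 9 of 52 cases, with 1 lower call for DOX1, annotated in that family but known as an alpha-dioxygenase. AT5G64100 stood at 112 FPKM in Col-0 and 164 FPKM in asil1-2 and PRXCB at 94.0 FPKM in Col-0 and 147 FPKM in asil1-2 in the authors' deposited table, and AT1G34510 (1.98 ± 0.75), AT3G49960 (0.97 ± 0.37), AT5G39580 (0.80 ± 0.32) and AT2G37130 (0.74 ± 0.25) changed most. Expansins, which loosen walls, went the other way among their called members, with 5 of 19 lower and 0 higher. EXPA8 stood at 108 FPKM in Col-0 and 33.7 FPKM in asil1-2 and EXPA1 at 114 FPKM in Col-0 and 52.9 FPKM in asil1-2 in the authors' deposited table, or -1.67 ± 0.25 and -1.11 ± 0.24. EXPA5, EXPA10 and EXP3 had values from -0.84 to -0.66. The median of the expansin family was 0.04, so the fall lay in these abundant members and not across the family. Cellulose synthase-like genes CSLB03 (-1.44 ± 0.28) and CSLB04 (-1.15 ± 0.26) fell, as did CSLG3 (-0.89 ± 0.32), and ATCSLB05 (1.48 ± 0.41) rose. Pectin enzymes, the largest wall family, gave 9 of 103 higher and 8 lower, with a median log2 fold change of -0.08. Those shares were 8.74% and 7.77%, the second close to the 6.00% of all members that fell. AT1G60590 stood at 12.5 FPKM in Col-0 and 2.88 FPKM in asil1-2 and AT1G10640 at 14.1 FPKM in Col-0 and 5.50 FPKM in asil1-2 in the authors' deposited table, or -2.12 ± 0.32 and -1.36 ± 0.29, while AT5G63180 had -1.12 ± 0.26 and AT5G14650 1.11 ± 0.39. Of 46 genes in the tubulin and actin family 4 rose and 0 fell. TUA3 (0.78 ± 0.25), TUA5 (0.68 ± 0.24) and TUB7 (0.49 ± 0.24) encode tubulins, and AT1G59710 (0.66 ± 0.29) is annotated as an actin cross-linking protein.

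**Figure D4:**
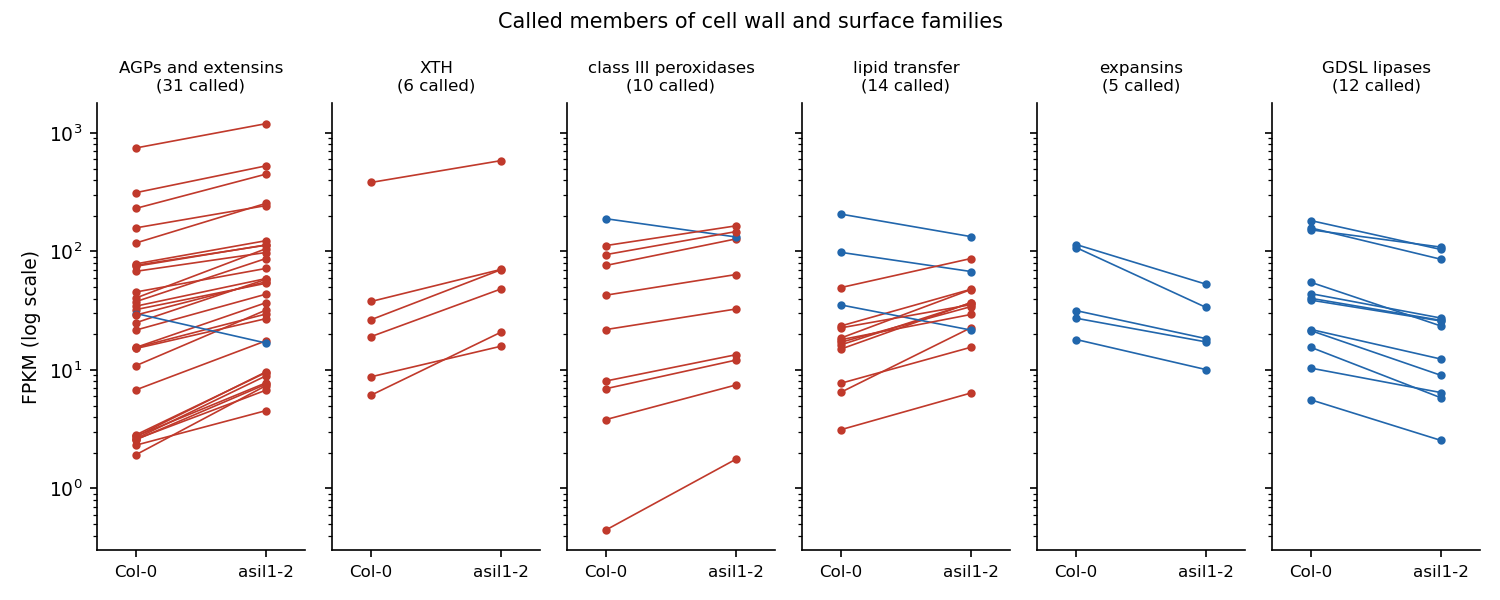
Each line joins the FPKM (log scale) of a called gene in Col-0 and in asil1-2, red where it rose and blue where it fell, in 6 families of cell wall and surface proteins. Nearly all lines of the first 4 families rise, and all lines of the expansins and GDSL lipases fall.

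Extensins and class III peroxidases are known for expression in roots. Of 16 root and root hair markers 3 rose, 1 fell and 12 were not called, and the summed level of the list was 162 FPKM in Col-0 and 189 FPKM in asil1-2 in the authors' deposited table. The root hair wall genes PRP1 (1.13 ± 0.41), PRP3 (0.88 ± 0.30) and LRX1 (0.97 ± 0.38) rose, of which LRX1 is also counted among the 30 extensin and arabinogalactan genes, and the sodium transporter gene HKT1 (-1.43 ± 0.38) fell. The endodermis genes CASP1 and CASP2 stood at 32.6 FPKM in Col-0 and 41.4 FPKM in asil1-2 and at 18.9 FPKM in Col-0 and 19.4 FPKM in asil1-2 in the authors' deposited table and were not called, with 0.35 and 0.04, nor were the root patterning genes SHR (-0.23) and SCR (-0.37). No defining root marker was listed at 0. The part of root content in the wall genes was not tested. In whole seedlings more or fewer cells of a type and more or less RNA per cell cannot be told apart. Guard cell markers summed to 45.7 FPKM in Col-0 and 40.6 FPKM in asil1-2 in the authors' deposited table, and FMA, which completes guard cells, fell by 0.69 (SE 0.30) on the log2 scale, and the other 8 of 9 were not called. Of 10 floral markers, AP1 was listed at 0.0459 FPKM in Col-0 and at 0 in asil1-2 in the authors' deposited table, STK at 0 in both, and SEP3, SEP1 and PI were members, none of them called.

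Lipid transfer proteins are small proteins that carry lipids to the wall and cuticle. They rose in 11 of 66 cases and fell in 3, beside 2.84% higher and 6.00% lower over all members. Most that rose form tandem groups of near-identical copies on chromosome 4, so their single values are uncertain. AT4G12520 stood at 49.6 FPKM in Col-0 and 87.0 FPKM in asil1-2 and AT4G22505 at 23.5 FPKM in Col-0 and 47.9 FPKM in asil1-2 in the authors' deposited table, or 0.81 ± 0.26 and 1.02 ± 0.26, and AT4G12490 (1.8 ± 0.38), AT4G22517 (1.36 ± 0.37), AT4G22513 (1.3 ± 0.43) and AT4G22485 (1.17 ± 0.24) changed most. GDSL lipases, secreted esterases some of which act on the cuticle, fell in 12 of 51 cases and rose in 0, with RXW8 at -1.41 ± 0.27, AT3G48460 at -1.25 ± 0.29 and AT5G45950 at -1.22 ± 0.25 and AT4G26790 at -1.13 ± 0.38. Of 21 wax and cutin genes 6 fell and 1 rose. LACS2, which activates fatty acids for cutin, stood at 32.1 FPKM in Col-0 and 17.3 FPKM in asil1-2 in the authors' deposited table, a log2 fold change of -0.89 ± 0.25. WSD1, a wax ester synthase, had -2.47 ± 0.79, CYP77A6 -0.76 ± 0.34, and CER4, which makes wax alcohols, rose by 0.95 ± 0.44.

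Calls among genes of specialised metabolism were mostly decreases, beside 2.84% higher and 6.00% lower over all members. Of 152 cytochrome P450 genes 31 fell and 6 rose. CYP71A13, an enzyme of the defence compound camalexin, fell by 2.49 (SE 0.79) on the log2 scale, CYP81D11 by 1.53 (SE 0.49) and CYP71B24 by 1.52 (SE 0.31). UDP-glycosyltransferases fell in 10 of 94 cases and rose in 1, with UGT73C1 at -2.29 ± 0.61, AT2G22590 at -1.5 ± 0.65, AT2G16890 at -1.22 ± 0.38 and UGT76E11 at -1.21 ± 0.31. Of 22 flavonoid and phenylpropanoid genes 6 fell and 0 rose, or 3 after median centring with the rescaled statistic. PAP1, the MYB activator of anthocyanin, stood at 2.75 FPKM in Col-0 and 0.891 FPKM in asil1-2 in the authors' deposited table and fell by 1.62 (SE 0.64), and MYBL2, a repressor of the same pathway, at 225 FPKM in Col-0 and 141 FPKM in asil1-2 and fell by 0.67 (SE 0.24). UGT78D2, which adds glucose to flavonols, and PAL2, at the entry of phenylpropanoids, fell by 0.75 (SE 0.28) and 0.56 (SE 0.24). Of 81 MYB factor genes 11 fell and 0 rose. They included MYB15 (-1.26 ± 0.58), MYB49 (-1.24 ± 0.37) and, of the glucosinolate pathway, MYB29 (-1.29 ± 0.32) and MYB28 (-1.15 ± 0.28). In that pathway 5 of 28 genes fell and 0 rose, among them CYP79F1 (-1.01 ± 0.25), of the aliphatic branch, and FMO GS-OX3 (-0.75 ± 0.31). Glutathione S-transferases gave 4 of 43 lower, GSTU23 (-1.05 ± 0.44), GSTU1 (-0.84 ± 0.27) and ERD9 (-0.73 ± 0.26) among them, and GSTU26 (0.73 ± 0.27) rose. Of 134 glycoside hydrolases 8 fell and 2 rose, or 5.97% and 1.49%, so the share that fell was close to that of all members. The beta-glucosidase genes BGLU40 (-1.23 ± 0.26), BGLU9 (-1.12 ± 0.26) and BGLU10 (-0.79 ± 0.26) were among those that fell.

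Stress genes rose in some lists and not in others. In the touch list STZ, a zinc finger repressor gene of stress responses, stood at 10.9 FPKM in Col-0 and 46.9 FPKM in asil1-2 and the calmodulin-like gene CML38 at 8.18 FPKM in Col-0 and 28.8 FPKM in asil1-2 in the authors' deposited table, or 2.11 ± 0.31 and 1.82 ± 0.32. SIB1 (1.60 ± 0.41) and the ERF family gene AT5G51190 (1.45 ± 0.33) came next. ERF104, at 48.8 FPKM in Col-0 and 129 FPKM in asil1-2, and ERF6, at 26.2 FPKM in Col-0 and 52.1 FPKM in asil1-2 in the authors' deposited table, rose by 1.41 ± 0.24 and 0.99 ± 0.26, beside WRKY18 (1.27 ± 0.24) and WRKY40 (1.2 ± 0.37), paired repressors of defence. These are genes that respond within minutes to handling of a plant, and how the seedlings were handled at harvest is not given. Of 28 heat shock and unfolded protein genes 7 rose and 1 fell. Those that rose belong to the cytosolic heat response, among them HSP90.1, at 5.71 FPKM in Col-0 and 10.8 FPKM in asil1-2, and HSFA7A, at 15.6 FPKM in Col-0 and 30.4 FPKM in asil1-2 in the authors' deposited table, or 0.92 ± 0.27 and 0.97 ± 0.29. The steepest rise called in the list was that of HSP17.6A, a small heat shock protein gene, with 3.42. HSFA2 (1.45 ± 0.43), a heat shock factor gene, and HSP101 (1.07 ± 0.30), which dissolves protein aggregates, rose as well, as did the small heat shock protein gene AT1G07400 (2.21 ± 0.59) and Hsp70b (0.80 ± 0.32) of the wider family. The endoplasmic reticulum chaperones BIP1 and BIP2 were not called, with -0.40 and -0.35, and the plastid chaperone CLPB3 fell by 0.67 (SE 0.26) on the log2 scale. AOX1A, the alternative oxidase of mitochondria, stood at 51.6 FPKM in Col-0 and 30.1 FPKM in asil1-2 in the authors' deposited table and fell by 0.78 (SE 0.25). BCS1 (0.80 ± 0.36), of the same list on low oxygen and mitochondrial stress, rose. In the list on salicylic acid defence SARD1 (1.39 ± 0.49) and WRKY70 (0.79 ± 0.25) rose, PBS3 (-0.75 ± 0.34) fell, and PR1, a marker of this defence, stood at 0.243 FPKM in Col-0 and 7.92 FPKM in asil1-2 in the authors' deposited table without being called. Receptor-like kinases, a family picked by annotation text and not limited to immune receptors, gave 25 of 297 lower and 3 higher, and NLR disease resistance genes 12 of 110 lower and 3 higher, or 8.42% and 10.9% lower beside 6.00% over all members. After median centring with the rescaled statistic these counts were 22 lower and 10 higher, and 7 lower and 5 higher. The steepest among the former were AT2G29250 (-1.49 ± 0.51), RLP47 (-1.27 ± 0.28), which is a receptor-like protein, and AT2G29220 (-1.26 ± 0.34), and among the latter AT5G43740 (-1.13 ± 0.29), AT1G72890 (-0.87 ± 0.27) and AT1G62630 (-0.83 ± 0.28) fell and AT5G41740 (0.90 ± 0.28) rose.

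Calls among AP2 and ERF, WRKY and NAC transcription factor genes went both ways, beside 2.84% higher and 6.00% lower over all members. Those among the 81 MYB factor genes, given above, did not, with 11 lower and 0 higher. Of 65 AP2 and ERF factor genes 7 rose and 4 fell, and ESE3 had the deepest fall, from 97.5 to 25.6 FPKM in the authors' deposited table (-1.93 ± 0.26). Of 51 WRKY genes 4 rose and 2 fell, with WRKY57 at -0.80 ± 0.31. Of 53 NAC genes 1 rose, NAC074 (1.18 ± 0.35), and 4 fell, among them NAC6 (-0.89 ± 0.29), NAC083 (-0.73 ± 0.24) and NAC3 (-0.71 ± 0.25). The calcium-binding protein gene AT2G41090 rose by 1.06 ± 0.24, 1 of 4 of its family that rose, with 2 that fell, of 64. Of 167 major facilitator and nutrient transporter genes 13 fell and 7 rose, with AT3G21670 at -1.51 ± 0.25 and AT1G68570 at -1.03 ± 0.30.

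Most housekeeping groups held fewer calls than the 2.84% higher and 6.00% lower of all members. Of 42 proteasome genes, 17 autophagy genes and 14 genes for vacuolar proton pumps 0 passed in the authors' Cuffdiff test, with 2, 0 and 0 at an unadjusted p under 0.05. Of 296 ribosomal protein genes 3 rose and 8 fell, but 6 were higher and 4 lower after median centring with the rescaled statistic. Those that changed most were AT5G39850 (-1.23 ± 0.36), AT1G23410 (-0.81 ± 0.34), AT5G55140 (0.80 ± 0.30) and AT1G07830 (0.77 ± 0.33). Of 81 genes for cyclins and DNA replication 1 rose and 1 fell. Of 41 histone genes 3 fell, or 7.32%, which is not below the overall share. They were HIS1-3, a drought-induced linker histone (-1.19 ± 0.32), AT2G28720 (-0.91 ± 0.23) and HTB1 (-0.56 ± 0.25). Of 177 pentatricopeptide repeat genes, most of which act on organelle RNA, 11 fell and 4 rose, or 6 and 6 after median centring with the rescaled statistic. They include DYW1 (-0.99 ± 0.27), AT1G16830 (1.66 ± 0.61), AT4G35850 (1.1 ± 0.36) and AT4G38150 (0.96 ± 0.38). Of 155 F-box genes 3 rose, FBS1 (1.55 ± 0.38) and AT1G65000 (0.87 ± 0.38) among them, and 3 fell. In the aminoacyl-tRNA synthetase family, picked by annotation text, AT3G01060 (-0.95 ± 0.24) and AT3G17800 (-0.62 ± 0.25) fell and AT5G10695 (0.94 ± 0.39) rose, of 51. The 6 transposable element genes among the members gave 0 calls by the same test and 0 at an unadjusted p under 0.05.

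Measured as FPKM rather than as a ratio, the 8 heaviest losses among called members fell on abundant genes with moderate changes. CAT2, the catalase of photorespiration, stood at 1131 FPKM in Col-0 and 757 FPKM in asil1-2 in the authors' deposited table and had -0.58 ± 0.27. AT4G23670, annotated as a polyketide cyclase family protein, stood at 1205 FPKM in Col-0 and 829 FPKM in asil1-2, or -0.54 ± 0.25, and AT5G19190, of no annotated function, at 1001 FPKM in Col-0 and 565 FPKM in asil1-2, or -0.83 ± 0.25, in the authors' deposited table. The others were AT1G13930 (-0.59 ± 0.24), AT1G09310 (-0.99 ± 0.24), AT4G29905 (-0.77 ± 0.24), AT1G80180 (-0.99 ± 0.23) and the F-box gene AT1G23390 (-0.78 ± 0.25). Each log2 fold change was smaller in size than 1. Further down the abundant moderate decreases were SNG1, which makes sinapoylmalate, the ultraviolet screen of the leaf (-0.57 ± 0.25), HDR, the last enzyme of the plastid isoprenoid pathway (-0.57 ± 0.25), DR4 (-0.53 ± 0.25) and the ribosomal gene AT5G28060 (-0.52 ± 0.24). At a q under 0.01 AT1G13930, CAT2, SNG1, HDR, AT4G23670, DR4 and AT5G28060 were no longer called. The heaviest gains among called members were in AT3G15450, at 1236 FPKM in Col-0 and 1829.6 FPKM in asil1-2, CP29, which binds plastid RNA, at 689.9 FPKM in Col-0 and 1137 FPKM in asil1-2, and AT2G15960, at 725 FPKM in Col-0 and 1133 FPKM in asil1-2 in the authors' deposited table. Their log2 fold changes were 0.57 ± 0.27, 0.72 ± 0.27 and 0.64 ± 0.24. AT5G42530 had the steepest rise of the 8 genes with the heaviest gains, from 144 to 457 FPKM in the authors' deposited table (1.67 ± 0.25), and EXT3, ASN1, TCH3 and STP1 made up the 8.

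Among called members with FPKM above 0 in both genotypes the largest fold increases were mostly in weakly expressed genes. AT5G28335, of no annotated function, had the largest, from 0.0576 to 1.02 FPKM in the authors' deposited table (4.15 ± 0.85), and 1 FPKM is the limit for membership. AT3G22235, a stress protein gene, stood at 1.11 FPKM in Col-0 and 11.0 FPKM in asil1-2 and AT1G33760, of the ERF factor family, at 1.82 FPKM in Col-0 and 13.2 FPKM in asil1-2 in the authors' deposited table, or 3.31 ± 0.74 and 2.86 ± 0.58. LURP1 (2.67 ± 0.55), ERF13 (2.62 ± 0.73), the acyltransferase gene AT2G25150 (2.99 ± 0.61), AT4G24110 (2.58 ± 0.75), the phosphoglycerate mutase gene AT5G04120 (2.43 ± 0.37), the dirigent-like gene AT4G11190 (2.39 ± 0.44) and the defensin-like gene AT4G22214 (2.32 ± 0.65) were among the 12 largest too. So were HSP17.6A, whose 3.42 came next after AT5G28335, and FER2, with 2.79. Among the 12 largest decreases, AT5G66740, annotated as a DUF620 protein, fell from 3.38 to 0.336 FPKM and the cysteine proteinase gene AT2G27420 from 4.64 to 0.538 FPKM in the authors' deposited table (-3.33 ± 0.90 and -3.11 ± 0.60). The F-box gene AT4G34550 (-2.94 ± 0.77), the terpene synthase gene TPS03 (-2.85 ± 1.00), AT2G15020 (-2.67 ± 0.34) and AT2G14247 (-2.63 ± 0.78) followed. The calmodulin-like gene CML41 fell from 7.98 to 1.42 FPKM in the authors' deposited table (-2.49 ± 0.53), and the noncoding RNA gene AT1G67105 from 8.34 to 1.47 FPKM (-2.5 ± 0.61). AT1G11362, a pectin methylesterase inhibitor gene, was the 1 called member listed at 0 in a genotype, at 0 in Col-0 and 1.17 FPKM in asil1-2 in the authors' deposited table. At the low end of the scale membership itself depends on the genotype that is higher. Of 362 members that were below 1 FPKM in Col-0 alone 37 were called, and of 364 below it in asil1-2 alone 30 were called.

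Some called genes lay side by side on the chromosomes. Runs of at least 3 neighbouring members called in the same direction numbered 11, of which 5 rose and 6 fell. They held 34 genes in all and at most 4 in a run. Among all members 2.84% rose and 6.00% fell, and how many runs such shares alone would give was not tested. The longest run was the thalianol cluster on chromosome 5 (from 19428888 to 19461689 in TAIR10), whose enzymes make a root triterpene. THAS1, thalianol synthase, stood at 17.2 FPKM in Col-0 and 27.9 FPKM in asil1-2, CYP708A2 at 22.0 FPKM in Col-0 and 35.4 FPKM in asil1-2 and CYP705A5 at 37.3 FPKM in Col-0 and 59.4 FPKM in asil1-2 in the authors' deposited table, and they rose alike, by 0.69 ± 0.25, 0.69 ± 0.26 and 0.67 ± 0.25. The acyltransferase gene AT5G47980 rose more steeply, from 1.47 to 7.06 FPKM in the authors' deposited table (2.26 ± 0.43). The members on either side, AT5G47970 and AT5G48020, were not called, with -0.46 and -0.13. On the same chromosome (from 8172316 to 8186640) SQP1, AT5G24155 and SQE6, in a group of squalene epoxidase genes, fell together. Whether these copies act in the route to sterols and triterpenes was not tested here. SQP1 stood at 48.6 FPKM in Col-0 and 11.2 FPKM in asil1-2, AT5G24155 at 68.8 FPKM in Col-0 and 19.2 FPKM in asil1-2 and SQE6 at 15.6 FPKM in Col-0 and 6.86 FPKM in asil1-2 in the authors' deposited table, or -2.12 ± 0.26, -1.84 ± 0.41 and -1.19 ± 0.28. Their neighbour SQP2 rose from 0.475 to 2.11 FPKM in the authors' deposited table (2.15 ± 0.62 (SE)). These copies resemble each other, and reads may have been split among them. Other runs that fell included the kinase genes AT1G51805, AT1G51820 and AT1G51830 and the genes AT3G44620, AT3G44630 and AT3G44670. Other runs that rose included the lipid transfer groups. The remaining runs, in both directions, are not listed here.

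**Figure D5:**
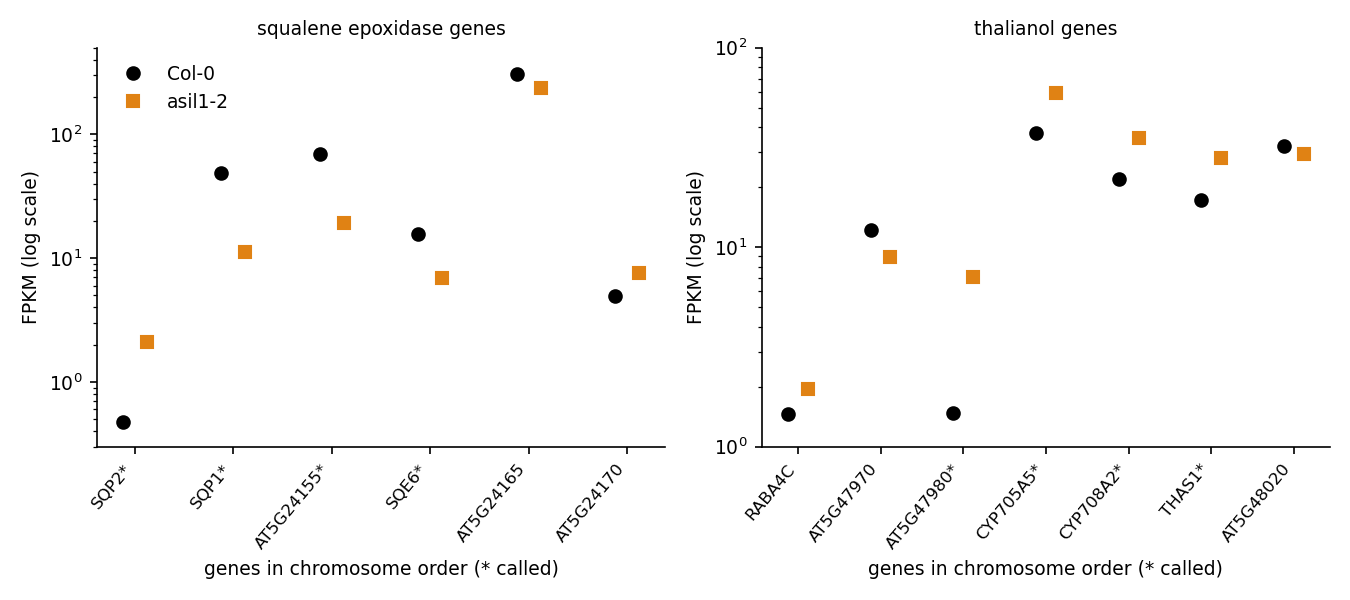
Circles give FPKM (log scale) in Col-0 and squares in asil1-2 for members in chromosome order around the squalene epoxidase genes (left) and the thalianol genes (right), with an asterisk for a called gene. SQP1, AT5G24155 and SQE6 lie lower in asil1-2 beside SQP2, which lies higher, and the 4 thalianol genes lie higher while their flanking genes differ little.

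At a q under 0.01 several of these groups thinned by more than 1.5 times. Decreases then numbered 7 instead of 12 among iron genes, 3 instead of 7 for chlorophyll and haem, 2 instead of 6 each for flavonoids and for wax and cutin, 3 instead of 5 for starch, and 3 instead of 7 for Aux/IAA and GH3 genes. Of the SAUR genes 4 of 8 decreases, of the NLR genes 6 of 12 and of the ribosomal protein genes 1 of 8 kept the call. Increases numbered 3 instead of 9 among class III peroxidases, 4 instead of 9 among pectin enzymes and 7 instead of 11 among lipid transfer proteins. The 3 decreases of the brassinosteroid and guard cell lists and both decreases of the jasmonate list lost the call. The sulfur, morning clock, light signalling, cytokinin, touch and extensin counts moved by at most 1.5 times.

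Values for the mutant hdp3-2 are set beside those of asil1-2 for some of these genes. The seedlings of hdp3-2 had the same age and growth, with 2 libraries, and were compared with the same Col-0 control, so any error of that control enters both columns and no measure of likeness is given. The sulfur gene APR1 had -0.51 ± 0.28 in hdp3-2 (not called) beside -1.12 ± 0.24 in asil1-2. SPX1 had -0.62 ± 0.28 (not called) beside -2.12 ± 0.26, and ATSPS4F had -0.56 ± 0.28 (not called) beside -3.53 ± 0.25. Among the wall genes, EXT3 had 0.072 ± 0.30, EXT12 0.51 ± 0.52 and XTR6 -0.16 ± 0.31 in hdp3-2, none of them called, beside 0.68, 1.93 and 1.40 in asil1-2. Other wall genes were called in the same direction in both mutants. In hdp3-2 XTH33 had 2.49 ± 0.38, XTH4 0.71 ± 0.29, EXPA1 -0.79 ± 0.29 and EXPA10 -1.03 ± 0.33. The copper genes CSD2 and CCS were called lower in both, with -2.08 ± 0.28 and -1.32 ± 0.28 in hdp3-2. For ARR7, HYH and CCA1, also called lower in both, hdp3-2 gave -1.18 ± 0.30, -1.39 ± 0.35 and -0.94 ± 0.32. Whether the mutants differ at these genes was not tested here.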

How the data were processed

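RNA was sequenced from whole seedlings of asil1-2 and hdp3-2, 2 libraries each. Per the submitters' processing notes, TopHat2, Cufflinks, Cuffdiff and deepTools were used with the genome build TAIR10, and the sources used here name neither versions nor options. The FPKM values were made by the authors, 1 per genotype, and deposited in the column layout of Cuffdiff. Each gene also has a deposited score, the test statistic of the authors, and p-value and q-value columns of their own, per the file headers. The smallest p is 5e-05 and the smallest q 0.00165, reached by 612 members. The deposited fold column was damaged by spreadsheet software, so log2 fold changes were recomputed from the FPKM columns. Their SE is the log2 value over that statistic. The z value implied by the authors' p was 1.42 times their statistic at the median, over statistics from 0.3 to 3 in size, so the SE is larger than p implies for most genes. Depth per library is unknown, so no interval or floor is given.

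Called means the authors' q under 0.05, over all the genes they tested. The members and the gene lists (31 lists with 732 entries) were chosen with earlier results of these data known, and so were the 40 families, picked by the text of the RefSeq TAIR10.1 annotation, in which 19116 members have an entry. Some family patterns were corrected after their matches had been read. No set of genes was tested. Genes were named by a rule: ASIL1, the 12 largest increases and decreases, the called genes listed at 0, the 8 largest gains and losses in FPKM, the 12 most abundant moderate decreases, the 4 most changed called genes of each list and of each family with at least 3 calls, and all seed genes. Named beyond it, after their values were seen, were AT4G39366, AT5G47970, AT5G48020, AGP16, AGP9, AP1, APR2, APR3, AT1G51805, AT1G51830, AT2G43150, AT3G44620, AT3G44630, AT3G44670, AT3G59940, AT4G12520, AT4G22505, AT5G24155, AT5G41050, AT5G47980, AT5G64100, ATSDI1, BBX28, BIP1, BIP2, CASP1, CASP2, CDF2, CDF3, CH1, CKX7, CLPB3, COP1, CRY1, CRY2, CYP705A5, CYP708A2, DOX1, ELF3, ERD7, ERF104, ERF6, EXL2, EXL4, EXP3, GI, GRP7, HAB1, HFR1, HSP90.1, HY5, LHY, LTI30, NIA1, NRT1.1, NRT1.5, P5CS1, PCB2, PCL1, PHYA, PHYB, PI, PIF7, POR C, PR1, PRR5, PRR7, PRR9, PRXCB, RAB18, RD22, RR5, RVE8, SCR, SEN1, SEP1, SEP3, SHM7, SHR, SPA1, SPS1F, SPS2F, SPX2, SQD2, SQE6, SQP1, SQP2, SS4, STK, SULTR2;1, THAS1, TOC1, TZP, XTH4 and bZIP1.

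Of the members, 3212 overlap another locus and are less certain. No promoter table was given, so the 300 bases before each annotated start were read from the TAIR10.1 genome, for 19115 members. Positions count from 1. Of 28626 nuclear loci that overlap no other, 52.0% share a start or end with that annotation, so the files rest on another annotation version. Alternatives were a q under 0.01, a 2-fold minimum, other FPKM minimums, pseudocounts of 1 and 0.1, adjustment over the members, a normal reading of the statistic, median centring and leaving out overlapping loci. The rescaled statistic, multiplied by the ratio above, was chosen after seeing the data. The normal reading was tested on simulated data. Computation used Python 3.11.15 with matplotlib 3.10.9, SciPy 1.17.1, pandas 2.3.3 and NumPy 2.4.6.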

Additional observations from a re-analysis of the deposited data

How the results depend on the processing

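Of 545 increases and 1151 decreases, 298 and 618 remained in number at a q under 0.01, and 194 and 252 with a 2-fold minimum, or 237 and 195 with that minimum after median centring. A normal reading of the authors' statistic called 165 and 272, and 200 and 194 after median centring, when decreases made up 49.2% of calls instead of 62.2%. Counts stayed within 1.5 times under the other FPKM minimums (from 391 to 547 higher and from 947 to 1155 lower), adjustment over the members (553 and 1173), without overlapping loci (501 and 1045) and with the rescaled statistic (608 and 1248, or 810 and 837 after centring). The median log2 fold change stayed between -0.091 and -0.074 under pseudocounts and FPKM minimums. The 245 named members with a value in both genotypes could not change sign under a pseudocount of 1, which keeps the genotypes' order. Called members could not do so under median centring, since the median of -0.08 is smaller in size than any called value. Members not called with a value between the median and 0, such as HSI2, turned positive after centring. Of the 232 called, 62 lost the call at a q under 0.01, and 29 shrank by over 1.5 times with a pseudocount of 1. Of 142 list and family counts, 48 moved by over 1.5 times at a q under 0.01 and 87 with a 2-fold minimum. No paired analysis was possible because the table holds no values per library, and no library could be left out for the same reason. The unknown number of Col-0 libraries and their unknown hour of harvest limit every value.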
